A study of Mus musculus with 7 samples.

Results

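The 9 genes described here encode transcription factors that specify or accompany the helper T cell lineages: Tbx21 (T-bet), Eomes, Gata3, Rora, Maf, Runx1, Runx3, Zbtb7b (ThPOK) and Ahr. They were taken by symbol from the deposited gene table, in which each of the 9 names matched exactly 1 of 34745 rows. RNA had been sequenced from naive CD4 T cells, helper cells that have not yet met antigen, of the spleen of 8-week-old male C57BL/6 mice. The groups were 3 wild-type (WT) mice and 4 mice carrying 1 activating (gain-of-function, GOF) copy of Pik3cd, the gene of the p110delta catalytic subunit of phosphoinositide 3-kinase. Controls were littermates, no treatment was given, and the cells were taken by negative selection without culture. Which substitution the allele carries, and whether all cells of the mice carried it, is not stated in the labels.

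A naive helper cell holds these lineage factors at low or intermediate levels, and cytokine and antigen signals raise particular ones as the cell differentiates. T-bet and its T-box relative Eomes direct interferon-gamma production and cytotoxic genes, GATA3 directs the type 2 (Th2) programme, the nuclear receptor RORalpha acts in cells that make IL-17 (Th17), and c-Maf acts in follicular helper cells and in cells that make IL-10. ThPOK holds the helper fate against RUNX3, which silences Cd4 and drives the CD8 lineage, and RUNX1 acts in naive cells. AHR is a receptor for small aromatic ligands and acts in IL-17 and IL-22 producing cells.

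The libraries held between 14497957 and 16293539 counts. All 9 genes passed the filter on low counts, as did 12668 genes in all. Markers of T helper cells were abundant in every library (summed level of 11 markers 5291 to 5703 CPM, the count scaled to 1000000 per library, in WT and 6795 to 7150 CPM in GOF), and of 8 markers of naive T cells 5 were lower in GOF and 0 higher (3 lower and 1 higher without GOF replicates 2 and 4). Markers of other cells were higher in GOF libraries: 12 of 14 tested myeloid, 9 of 9 neutrophil, 8 of 12 B cell and 10 of 10 NK cell markers rose and 0 fell, as did 5 of 9 markers of red blood and mast cells. Without GOF replicates 1 and 3 the counts that rose were 8 of 14 myeloid, 7 of 9 neutrophil, 3 of 12 B cell, 7 of 10 NK cell and 1 of 9 red blood and mast cell markers. Without GOF replicates 2 and 4 they were 13 of 14, 10 of 10, 9 of 12, 9 of 10 and 8 of 11. With all libraries 16.8% of the 12668 tested genes rose and 14.5% fell. Myeloid markers summed to 54.5 to 93.2 CPM in WT, to 508 and 542 CPM in GOF replicates 1 and 3, and to 177 and 198 CPM in replicates 2 and 4. In RNA of a whole cell preparation, more cells that express a gene and more RNA of it per cell cannot be told apart.

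Of the 9 factors 5 rose and 1 fell in GOF cells (edgeR quasi-likelihood test, p-values adjusted over all tested genes, threshold 0.05), where 16.8% of all tested genes rose, 14.5% fell and 31.3% did either. At least 2-fold rises were found for 4 factors (background 9.6%). The groups did not overlap for 7 factors, against 39.8% of all tested genes (GOF above WT 21.5%, below 18.2%). The median log2 fold change of the 9 was 0.81, and that of all tested genes 0.01. Tbx21, Eomes and Maf rose about as much as each other on the log2 scale (3.40, 3.31 and 3.31), Zbtb7b and Gata3 rose less (2.04-fold and 1.75-fold), Runx1 fell by 0.32 on the log2 scale, and Runx3, Ahr and Rora did not pass the threshold.

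**Figure D1:**
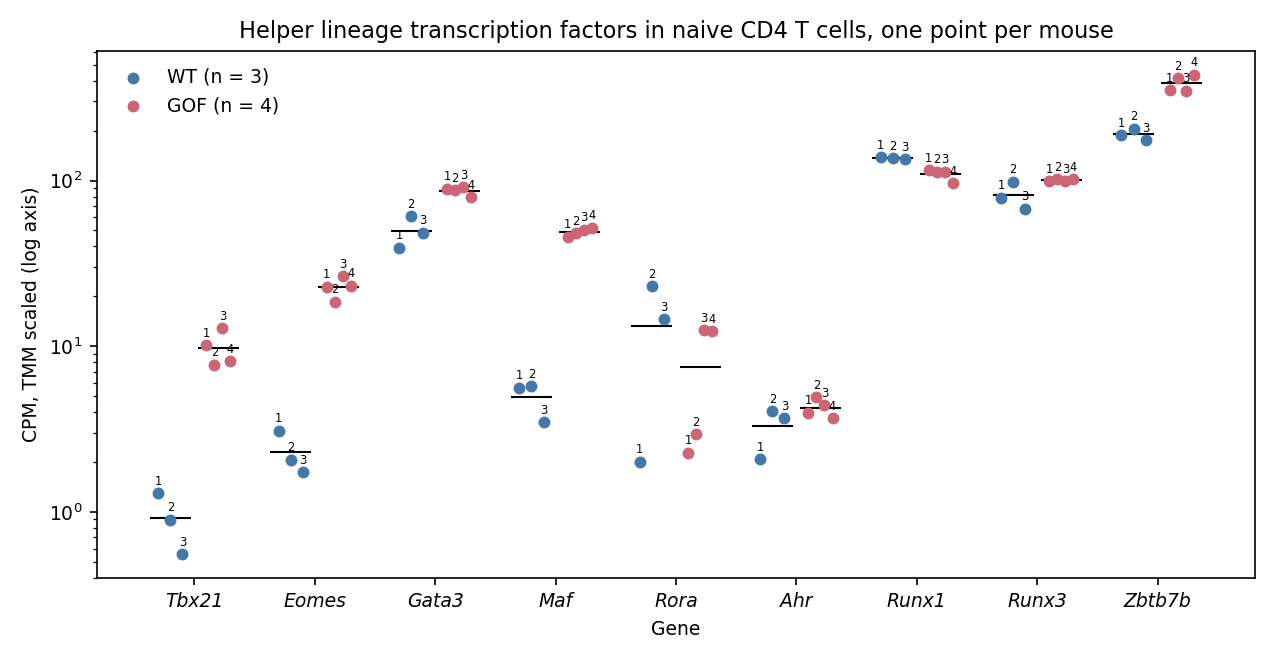
Level of each factor in each library, as TMM-scaled CPM on a log axis, with 1 point per mouse labelled by replicate number and a black line at the group mean. The GOF points of Tbx21, Eomes and Maf lie at least 5.98 times above the highest WT point, while those of Rora and Ahr overlap with WT.

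Tbx21 (ENSMUSG00000001444, mm10 chromosome 11, 97098071 to 97115331, minus strand, protein coding) was expressed at 1.29, 0.895 and 0.557 CPM in WT replicates 1, 2 and 3 and at 10.2, 7.73, 12.8 and 8.10 CPM in GOF replicates 1 to 4. The lowest GOF library lay 5.98-fold above the highest WT library. Group means were 0.915 ± 0.368 CPM in WT (SD, n = 3) and 9.70 ± 2.33 CPM in GOF (SD, n = 4), and the rise was 10.5-fold with a 95% interval of 6.20 to 17.9 (log2 fold change 3.40, SE 0.34, edgeR adjusted p = 1.28e-04). The WT level rests on few reads, 8 to 18 per library and 39 in all (95% Poisson interval 27.7 to 53.3, counting error only), whereas the GOF libraries held 616.

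Eomes (ENSMUSG00000032446, chromosome 9, 118478212 to 118486132, plus strand, protein coding) followed the same course. Its WT levels were 3.09, 2.07 and 1.74 CPM, and its GOF levels 22.9, 18.5, 26.5 and 23.2 CPM. These groups were again separate, with the lowest GOF value 6.00 times the highest WT value. The rise was 9.89-fold (95% interval 6.83 to 14.3, log2 fold change 3.31, SE 0.24, edgeR adjusted p = 2.03e-05), from 98 WT and 1442 GOF counts.

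To show the start regions of this T-box pair, the 250 bases before the RefSeq transcription start (GRCm38.p6) are given 5′ to 3′. The window of Tbx21 is chr11:97115332-97115581, minus strand, and that of Eomes chr9:118477939-118478188, plus strand. The bases just after the RefSeq start were found in a transcript of the GENCODE M21 annotation for Tbx21 but not for Eomes. Capitals would mark a match to any of the short motifs listed further on, and neither window holds such a match.
Tbx21: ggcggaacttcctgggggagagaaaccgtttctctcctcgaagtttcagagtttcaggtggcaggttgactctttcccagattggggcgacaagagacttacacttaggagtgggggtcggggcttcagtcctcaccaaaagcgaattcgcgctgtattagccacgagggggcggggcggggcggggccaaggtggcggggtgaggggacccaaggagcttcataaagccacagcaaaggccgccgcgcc
Eomes: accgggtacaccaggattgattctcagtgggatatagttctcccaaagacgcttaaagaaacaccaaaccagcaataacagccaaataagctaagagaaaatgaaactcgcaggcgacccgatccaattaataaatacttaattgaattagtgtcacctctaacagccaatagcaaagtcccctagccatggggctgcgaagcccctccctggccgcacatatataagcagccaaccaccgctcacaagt
The Tbx21 window held 60.8% G and C and the Eomes window 46.4%, with a median of 52.4% over all windows of the table.

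Genes that T-box factors are known to act on were read from lists. Beside these lists stand 16.8% of all tested genes that rose and 14.5% that fell. Of 18 genes of type 1 helper (Th1) cells 10 rose and 4 fell, with a median log2 fold change of 1.39. Ifng, the defining cytokine, averaged 0.208 ± 0.183 CPM in WT (SD, n = 3, from 9 counts with 0 in replicate 1) and 4.10 ± 1.05 CPM in GOF (SD, n = 4, edgeR adjusted p = 0.00118). In the other direction, Ifngr1, a chain of the interferon-gamma receptor, fell from 973 to 147 CPM, Tnf, an inflammatory cytokine, from 81.4 to 13.1 CPM, and Stat4, which carries IL-12 signals, from 260 to 104 CPM (edgeR adjusted p between 1.23e-05 and 3.06e-05 for these 3). So the Th1 list rose in its cytokine and fell in parts of its receptor and signal chain. All 9 cytotoxic genes rose, by a median of 2.23: Gzma, granzyme A, went from 0.960 to 18.3 CPM, Ctsw, a cathepsin of cytotoxic cells, from 19.4 to 93.8 CPM, Nkg7, a granule protein, from 5.95 to 24.0 CPM and Cst7, a cystatin, from 4.24 to 17.1 CPM. Without GOF replicates 1 and 3 the Th1 counts were 7 higher and 3 lower of 17 tested, and 8 cytotoxic genes rose. Without replicates 2 and 4 the Th1 counts were 8 and 3 of 18 tested, and 8 cytotoxic genes rose.

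NK cells also make T-bet and Eomes, and NK markers moved with these genes. The 10 markers summed to 33.0 to 33.3 CPM in WT, to 148 and 156 CPM in GOF replicates 1 and 3, and to 85.1 and 90.9 CPM in replicates 2 and 4. Gzma and Prf1 stand on both lists. The NK receptor gene Ncr1 was at 0.466 ± 0.209 CPM (SD, n = 3) in WT and 3.56 ± 1.39 CPM (SD, n = 4) in GOF, and of the 10 markers only Klre1 was at 0 in any library (WT replicates 1 and 3). Tbx21 was likewise higher in GOF replicates 1 and 3 (10.2 and 12.8 CPM) than in 2 and 4 (7.73 and 8.10 CPM), while for Eomes the pairs overlapped. Without GOF replicates 1 and 3 the log2 fold changes were 3.09 for Tbx21 and 3.17 for Eomes (edgeR adjusted p = 0.00276 and 7.44e-04). The part of NK cells in these rises was not tested. The genes of the CD8 coreceptor, Cd8a and Cd8b1, were not called: Cd8a was at 9.67 ± 4.94 CPM (SD, n = 3) in WT and 5.63 ± 1.16 CPM (SD, n = 4) in GOF, and Cd8b1 at 24.0 ± 1.90 and 20.5 ± 3.46 CPM (edgeR adjusted p = 0.0972 and 0.300).

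**Figure D2:**
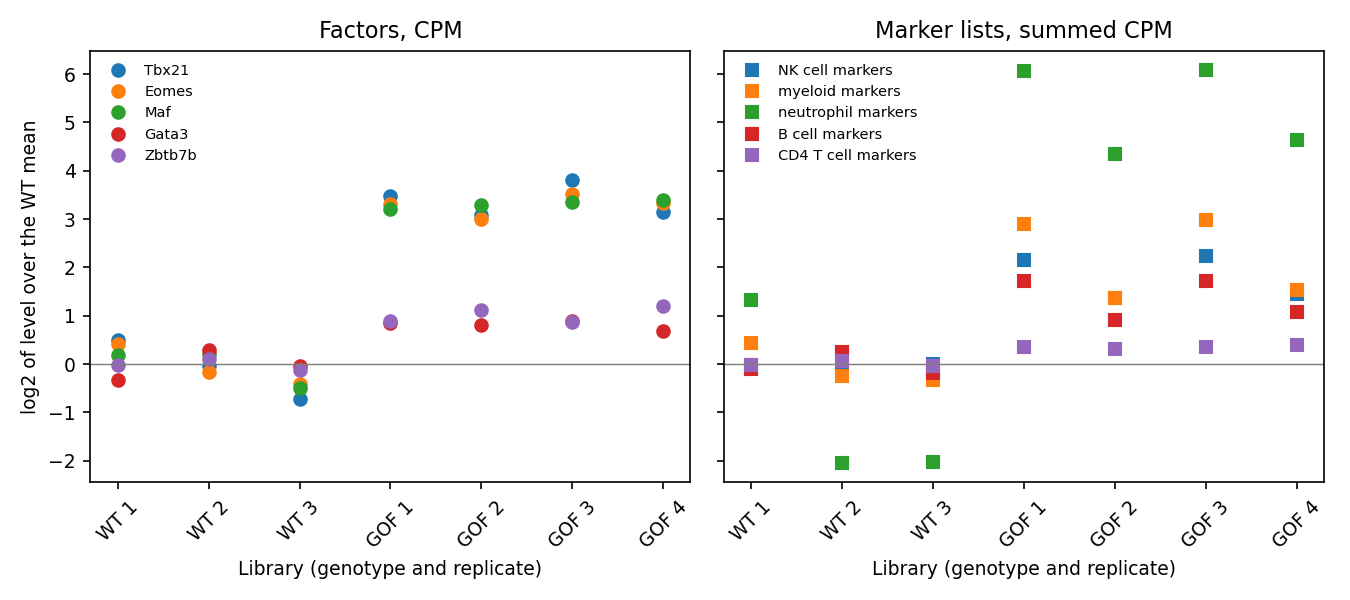
Level of 5 factors (left, CPM) and summed level of 5 marker lists (right, summed CPM) in each library, as log2 of the level over the WT mean. Myeloid, neutrophil, B cell and NK markers are higher in GOF replicates 1 and 3 than in 2 and 4, whereas Maf lies at 45.9 to 51.8 CPM and Zbtb7b is lower in replicates 1 and 3.

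Gata3 (ENSMUSG00000015619, chromosome 2, 9857078 to 9890034, minus strand, protein coding) was already well expressed in WT cells, at 39.3, 60.7 and 48.4 CPM, and reached 89.2, 87.3, 91.3 and 79.3 CPM in GOF. All GOF libraries were above all WT libraries, by at least 1.31-fold. It rose 1.75-fold (95% interval 1.40 to 2.20, log2 fold change 0.81, SE 0.14, edgeR adjusted p = 0.00315). Of 14 Th2 genes only 8 passed the filter, of which 3 rose and 1 fell (median 1.64). Over all tested genes 16.8% rose and 14.5% fell. The cytokine gene Il4 had 2 counts in the WT and 10 in the GOF libraries together and was not tested. Ccr8, a chemokine receptor of Th2 and regulatory cells, rose from 0.0928 to 8.16 CPM. Of its 4 WT counts 3 were in replicate 2, and the log2 fold change of 6.33 became 7.55 when that library was left out. Ccr4, another such receptor, rose from 0.799 to 4.97 CPM. Ccr3, an eotaxin receptor, rose from a mean of 0.116 ± 0.201 CPM in WT (SD, n = 3) to one of 6.72 ± 4.68 CPM in GOF (SD, n = 4), and its 5 WT counts were all in replicate 3. Its log2 fold change of 5.75 became 9.68 without that library, 4.42 without GOF replicates 1 and 3 and 6.44 without GOF replicates 2 and 4. Il4ra, the IL-4 receptor alpha chain through which the GATA3 programme is induced, fell from 1278 to 441 CPM (edgeR adjusted p = 1.00e-05). Among 7 markers of group 2 innate lymphoid cells, which also make GATA3, 3 were tested and 1, Klrg1 (also on the cytotoxic list, with 7 WT counts, all in replicate 1), rose, and their summed level was 0.766 to 2.48 CPM in WT and 7.72 to 10.7 CPM in GOF. Their part in the rise of Gata3 was not tested.

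Maf (ENSMUSG00000055435, chromosome 8, 115682942 to 115707794, minus strand, protein coding) had the smallest p of the 9 factors. WT libraries held 5.60, 5.72 and 3.48 CPM and GOF libraries 45.9, 48.0, 50.5 and 51.8 CPM. The GOF libraries differed among themselves by 1.13-fold from lowest to highest, and the lowest was 8.03 times the highest WT library. Maf rose 9.93-fold (95% interval 7.45 to 13.2, log2 fold change 3.31, SE 0.18, edgeR adjusted p = 5.95e-06). Macrophages also make c-Maf. Myeloid markers summed to 508 and 542 CPM in GOF replicates 1 and 3 and to 177 and 198 CPM in 2 and 4, while Maf was at 45.9 and 50.5 CPM in the first pair and at 48.0 and 51.8 CPM in the second. The part of myeloid cells in the rise of Maf was not tested. Without GOF replicates 1 and 3 its log2 fold change was 3.33 and without 2 and 4 it was 3.30 (edgeR adjusted p = 3.16e-04 and 3.68e-04).

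Of 11 genes of IL-10 producing and follicular helper cells 9 were tested, of which 8 rose and 1 fell, with a median of 2.57. Over all tested genes 16.8% rose and 14.5% fell. Il10 itself was seen with 1 count over all WT mice and 137 over all GOF mice. In CPM this is a 92.8-fold difference, for which counting error alone allows 16.4 to 3691 (95% interval). Its GOF level was 2.18 ± 0.758 CPM (SD, n = 4). Tigit, an inhibitory receptor, rose from 1.38 to 9.26 CPM, and Itgae, the integrin alpha E chain, from 1.53 to 6.93 CPM. The 1 that fell was the costimulatory receptor Icos, from 102 ± 12.2 to 59.1 ± 1.89 CPM (edgeR adjusted p = 5.03e-04). Without GOF replicates 1 and 3 10 of these genes were tested, of which 9 rose and 1 fell. Without 2 and 4 the counts were 7 and 1 of 9 tested.

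Rora (ENSMUSG00000032238, chromosome 9, 68653786 to 69388246, plus strand, protein coding) did not follow genotype. Its levels were 2.01, 23.0 and 14.6 CPM in WT replicates 1, 2 and 3 and 2.28, 2.94, 12.5 and 12.4 CPM in GOF replicates 1, 2, 3 and 4. In each genotype some libraries were near 2 CPM and others above 12 CPM, with an 11.4-fold range in WT and a 5.49-fold range in GOF. The log2 fold change was -0.81 with an SE of 0.78 (95% interval -2.57 to 0.95, edgeR adjusted p = 0.466), so that neither a large fall nor a smaller rise lies outside the interval. Leaving out single libraries moved it from -1.32 (without WT replicate 1) to -0.14 (without WT replicate 2), with -1.17 and -1.15 without GOF replicates 3 and 4 and -0.50 and -0.54 without GOF replicates 1 and 2, and it was called in none of these fits. Counts were 28 to 334 per library, so counting error is small beside this spread.

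**Figure D3:**
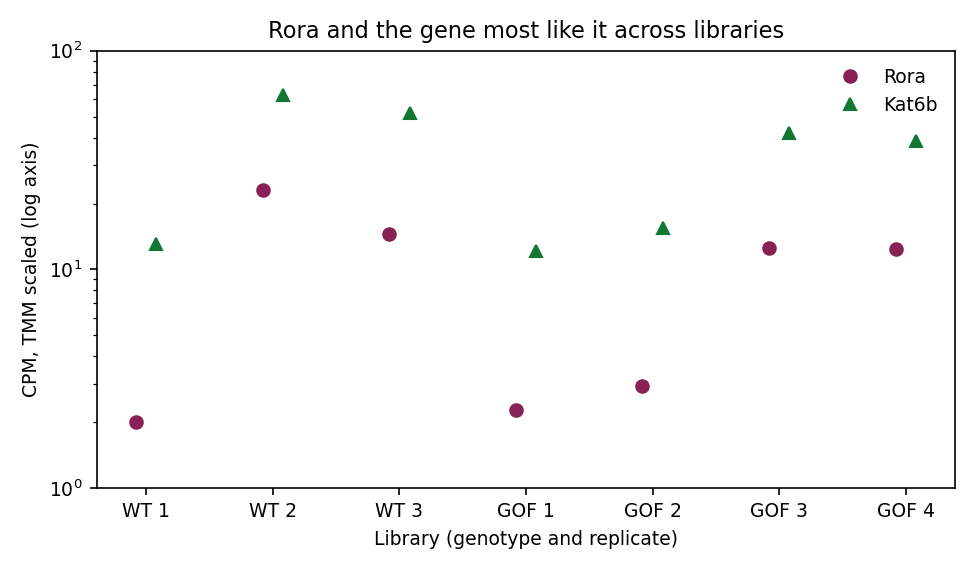
CPM of Rora (circles) and of Kat6b (triangles), the gene most like it over the 7 libraries, on a log axis. Both are low in WT replicate 1 and GOF replicates 1 and 2 and high in the other 4 libraries.

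Of 16 Th17 genes 9 were tested, and 6 rose and 2 fell (median 0.39). Beside the lists of this paragraph stand 16.8% of all tested genes that rose and 14.5% that fell. Il17a had 8 counts in WT and 10 in GOF and was not tested. Ccr6, a chemokine receptor of Th17 and B cells, rose from 0.230 to 2.54 CPM (7 of its 10 WT counts in replicate 2, without which the log2 fold change went from 3.41 to 4.48), and Tgfb1 rose from 174 to 227 CPM. Nfkbiz, an NF-kappaB cofactor, fell from 280 to 167 CPM. Without GOF replicates 1 and 3 only 4 rose and 1 fell, and without 2 and 4 only 3 and 1, in each case of 10 tested. Of 8 tested genes of the circadian clock, where ROR factors bind, 2 rose and 3 fell (median -0.19; 1 and 2 without GOF replicates 1 and 3). Nr1d2, a repressor that shares binding elements with ROR factors, fell from 73.4 to 33.9 CPM, Cry1 from 67.4 to 35.8 CPM, and Npas2 rose from 0.279 to 1.45 CPM.

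Zbtb7b (ENSMUSG00000028042, chromosome 3, 89377644 to 89394776, minus strand, protein coding) was the most abundant of the 9 factors in both genotypes. It was at 189, 206 and 176 CPM in WT and at 351, 416, 348 and 435 CPM in GOF. All GOF values lay above all WT values, by at least 1.69-fold, and GOF replicates 2 and 4, with fewer markers of other cells, were the higher ones. The rise was 2.04-fold (95% interval 1.72 to 2.42, SE 0.11 on the log2 scale, edgeR adjusted p = 1.86e-04). On the opposite strand the antisense gene Gm15417 shares 116 exon bases with it and held 23 to 48 counts per library, against 2527 to 6767 for Zbtb7b.

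Runx3 (ENSMUSG00000070691, chromosome 4, 135120652 to 135177990, plus strand, protein coding) was at 78.7, 98.2 and 67.7 CPM in WT and at 99.3, 102, 99.4 and 102 CPM in GOF. The GOF libraries varied little (coefficient of variation 1.55%, against 19.0% in WT), and the lowest was 1.01 times the highest WT library. The log2 fold change of 0.30 (SE 0.12, 95% interval 0.03 to 0.58) did not pass after adjustment (edgeR adjusted p = 0.0911). It passed without WT replicate 2, the highest WT library (log2 fold change 0.46, adjusted p = 0.00972).

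Runx1 (ENSMUSG00000022952, chromosome 16, 92601466 to 92826149, minus strand, protein coding) was the 1 factor that fell. It was nearly constant in WT, at 138, 137 and 135 CPM, and lay at 116, 113, 113 and 96.2 CPM in GOF. The groups were separate, by a small margin. The fall was to 0.802 of the WT level (95% interval 0.699 to 0.920, log2 fold change -0.32, SE 0.09, edgeR adjusted p = 0.0229). This call ended without WT replicate 1 or 3 (log2 fold change -0.31 and -0.33, edgeR adjusted p = 0.0515 and 0.0544) and with both pairs of GOF libraries left out in turn (-0.39 and -0.24, adjusted p = 0.0621 and 0.0992).

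Of 6 tested RUNX partners 1 rose and 2 fell, where 16.8% and 14.5% of all tested genes did so. Runx2, the third RUNX gene, rose from 1.75 to 6.28 CPM (edgeR adjusted p = 0.00182). The corepressor Tle1 fell from 21.6 to 9.78 CPM and the kinase Hipk2 from 33.0 to 14.7 CPM. The call of Hipk2 ended without GOF replicates 1 and 3 (edgeR adjusted p = 0.0674). Cbfb, the subunit that all RUNX factors bind, had a log2 fold change of -0.07 and did not pass (184 and 175 CPM, SE 0.11 on the log2 scale, edgeR adjusted p = 0.672). Of 12 tested genes around the choice between the CD4 and CD8 lineage 3 rose and 1 fell (median 0.11). That is near the 31.3% of all tested genes that did either. Cd4, the helper coreceptor, rose from 755 to 1107 CPM, Tox, a nuclear factor of CD4 lineage development, from 23.8 to 75.2 CPM and Myb from 6.04 to 40.6 CPM. Patz1, a zinc finger protein that represses ThPOK in CD8 cells, fell from 61.2 to 46.3 CPM (edgeR adjusted p = 0.0131). That call ended without either pair of GOF libraries (adjusted p = 0.108 and 0.0523).

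The start regions of Runx3 and Zbtb7b are shown because a RUNX motif was found there. RefSeq windows were at hand for 7 of the 9 factors, 10 windows in all, and motifs were searched on both strands in the 250 bases before the start. The letters were TGTGGT for RUNX, TCACAC for T-box factors, AGATAA for GATA factors, AGGTCA for ROR factors, TGCTGA for MAF factors and GCGTG for AHR. The upstream window of Runx3 is chr4:135120395-135120644, plus strand, and the downstream window of Zbtb7b chr3:89387672-89387921, minus strand. Capitals mark RUNX matches (ACCACA is the motif on the other strand).
Runx3: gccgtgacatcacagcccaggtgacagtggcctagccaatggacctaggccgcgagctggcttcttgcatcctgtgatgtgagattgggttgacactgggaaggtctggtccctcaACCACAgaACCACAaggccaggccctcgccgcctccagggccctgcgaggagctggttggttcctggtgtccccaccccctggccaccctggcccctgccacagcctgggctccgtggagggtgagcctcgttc
Zbtb7b: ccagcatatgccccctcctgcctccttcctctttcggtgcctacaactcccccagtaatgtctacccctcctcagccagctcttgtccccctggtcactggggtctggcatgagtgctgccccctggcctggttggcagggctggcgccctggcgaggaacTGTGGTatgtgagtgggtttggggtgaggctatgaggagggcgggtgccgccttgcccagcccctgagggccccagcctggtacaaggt
The Runx3 window held 2 RUNX matches, at -134 to -129 and -126 to -121 from the RefSeq start, and the Zbtb7b window 1, at -89 to -84. The bases just after the start were found in a GENCODE M21 transcript for this Zbtb7b window. They were not found for this Runx3 window or for the downstream Runx1 window. A RUNX match was found in 2 of the 10 windows of the factors and in 14.0% of 32851 windows of the same length. T-box, GATA and ROR letters were found in 0 of the 10 windows (12.3%, 9.99% and 14.0% of all windows), MAF letters in 1 (Gata3; 16.1% of all) and AHR letters in 2 (Rora and the downstream Runx1 window; 28.2% of all). No 2 motifs overlapped in these windows, and a match describes letters, not binding.

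Ahr (ENSMUSG00000019256, chromosome 12, 35497974 to 35535038, minus strand, protein coding) was low in all libraries, at 2.08, 4.06 and 3.69 CPM in WT and 3.97, 4.92, 4.39 and 3.67 CPM in GOF. The groups overlapped. Its log2 fold change was 0.37 (SE 0.29, 95% interval -0.28 to 1.02, edgeR adjusted p = 0.364), from 29 to 77 counts per library. The interval runs from 0.823 to 2.02 times the WT level, so neither a small fall nor a larger rise lies outside it. Of 8 tested genes of its pathway 0 rose and 3 fell (median -0.38), and 0 and 1 without GOF replicates 1 and 3. Of all tested genes 16.8% rose and 14.5% fell. Slc7a5, an amino acid transporter that carries AHR ligands, fell from 141 to 64.1 CPM. Ptges3, the p23 cochaperone of the AHR complex, fell from 101.5 to 75.2 CPM, and Arnt, the DNA-binding partner of AHR, from 51.7 ± 10.6 to 34.3 ± 6.60 CPM with overlapping groups. The call of Ptges3 ended when replicate 1 or 3 of either genotype was left out (edgeR adjusted p = 0.0513 to 0.0547), and without both of these GOF libraries (0.137). That of Arnt ended on leaving out WT replicate 2 or 3, or GOF replicate 1, 3 or 4 (edgeR adjusted p = 0.0542 to 0.118). Cyp1a1, the classical AHR target, had 3 counts in WT and 4 in GOF and was not tested.

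**Figure D4:**
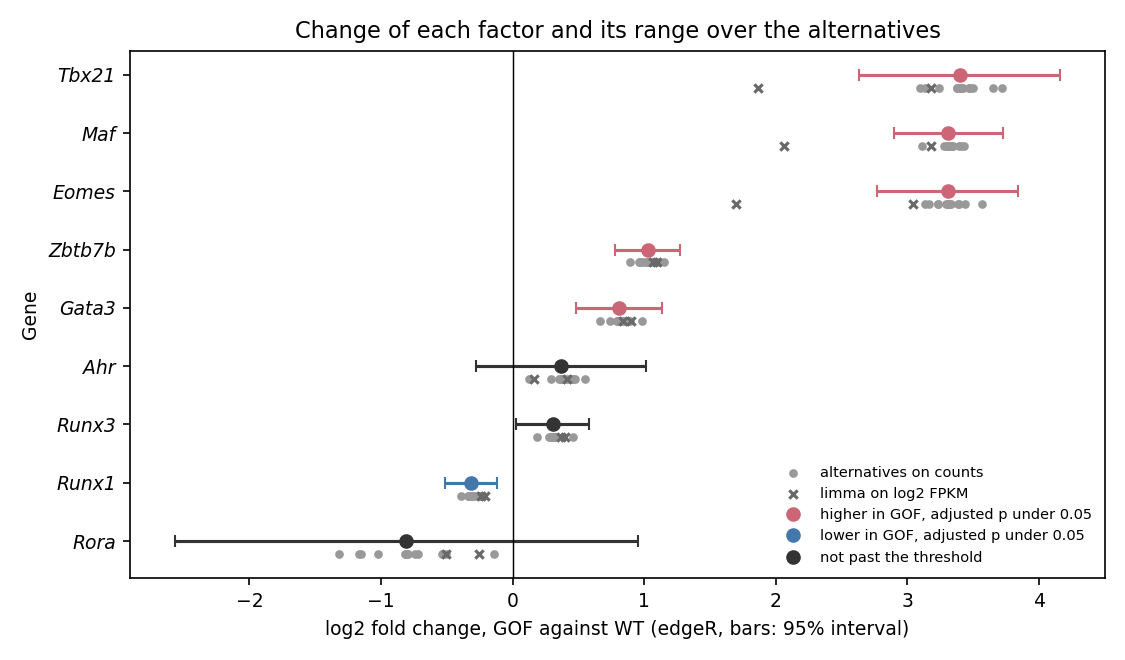
Log2 fold change of each factor, GOF against WT, from edgeR with its 95% interval (large points), above the values under the alternatives (small grey points and crosses). Tbx21, Maf and Eomes keep a change above 1.69 throughout, and the interval of Rora spans from -2.57 to 0.95.

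Factors of other helper fates changed beside the 9. Of all tested genes 16.8% rose and 14.5% fell, the shares to set beside the counts of this paragraph. Of 16 tested transcription factors of regulatory, follicular and naive cells 9 rose and 4 fell (7 and 4 without GOF replicates 1 and 3, 8 and 3 without 2 and 4). Foxp3, the regulatory T cell factor, rose from 30.6 ± 2.07 to 72.0 ± 3.58 CPM, Bcl6, the follicular helper factor, from 8.47 to 43.0 CPM and Foxo1, a factor of naive cells that PI3K signals restrain, from 252 to 582 CPM. Prdm1 (Blimp-1), which opposes Bcl6, fell from 20.2 to 8.91 CPM, and Id2, an inhibitor of E proteins, from 258 to 118 CPM. The defining factors of the Th1, Th2, regulatory and follicular fates (Tbx21, Gata3, Foxp3 and Bcl6) thus each rose. Markers of regulatory T cells, with Foxp3 among them, went both ways: of 7 tested 4 rose and 3 fell. The counts were 3 and 3 without GOF replicates 1 and 3, and 4 and 2 without 2 and 4. Their summed level was 340 to 479 CPM in WT and 332 to 362 CPM in GOF. The part of regulatory T cells in these rises was not tested. Among 13 tested relatives of the 9 factors 4 rose and 5 fell (median -0.01; 3 and 3 without GOF replicates 1 and 3). Mafg, a small MAF protein, fell from 75.9 to 28.3 CPM and Hif1a, a relative of AHR, from 250 to 112 CPM.

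Per kilobase of transcript, Zbtb7b was highest in WT (26.0 ± 1.92 FPKM, SD, n = 3), followed by Runx3 (11.7 ± 2.17), Gata3 (8.98 ± 1.97) and Runx1 (7.26 ± 0.0193). The ranges of Runx3 and Gata3, and of Gata3 and Runx1, overlapped. The other 5 lay between 0.311 FPKM for Eomes and 0.862 FPKM for Rora on the deposited scale, and each overlapped with its neighbours in the order. In GOF the order was Zbtb7b (55.9 ± 6.28 FPKM, SD, n = 4), Gata3 (16.6 ± 1.05), Runx3 (15.3 ± 0.211), Runx1 (6.15 ± 0.527), Maf (5.23 ± 0.257), Tbx21 (3.98 ± 0.959) and Eomes (3.26 ± 0.462). From Gata3 to Runx3, and along the run from Runx1 to Eomes, neighbours overlapped. Ahr and Rora were last, at 0.662 and 0.516 FPKM. Over Tbx21, Eomes and Maf, the highest WT library reached 0.577 FPKM (Maf) and the lowest GOF library 2.66 FPKM (Eomes).

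The order of the T-box pair depended on the gene length used. The deposited values imply a length of 2488 bases for Tbx21, equal to its merged exons in GENCODE M21, but 7142 bases for Eomes, whose merged exons hold 4155. On the deposited scale Eomes stood at 0.720 to 0.995 times Tbx21 in GOF libraries, and with merged exon lengths at 1.24 to 1.71 times. Lengths also differed for other factors, such as Gata3 (5342 against 3978 bases) and Runx1 (18224 against 12025). With merged exon lengths Runx1 (lowest 8.135 FPKM) and Maf (highest 6.395 FPKM) no longer overlapped in GOF. Ratios within a library do not depend on the scaling between libraries. The Eomes to Tbx21 ratio overlapped between genotypes, with a difference of -0.12 on the log2 scale. The Gata3 to Tbx21 ratio was 14.2 to 40.5 in WT and 3.32 to 5.26 in GOF, a separation with a mean log2 difference of -2.63. With merged exon lengths it was 19.0 to 54.3 in WT and 4.46 to 7.07 in GOF, with the same difference. Runx3 stood at 1.36 to 1.94 times Runx1 in WT and at 2.32 to 2.87 times in GOF (1.21 to 1.72 and 2.06 to 2.55 with merged exon lengths). Against Zbtb7b it stood at 0.405 to 0.502 times in WT and 0.247 to 0.301 times in GOF (0.430 to 0.533 and 0.262 to 0.319 with merged exon lengths). So the balance of this opposing pair lay further toward Zbtb7b in all 4 GOF libraries. The Rora to Gata3 ratio overlapped between the groups. These ratios are descriptions, and no test was made of them.

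**Figure D5:**
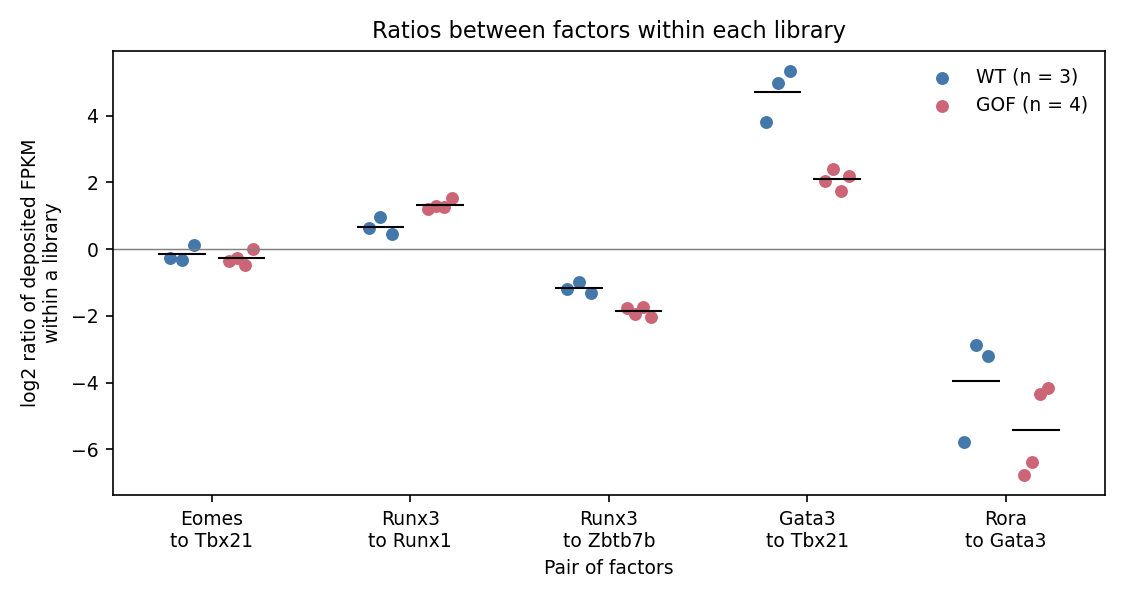
Log2 ratio of deposited FPKM between pairs of factors within each library, with 1 point per library and a black line at the group mean. WT and GOF are separate for Runx3 to Runx1, Runx3 to Zbtb7b and Gata3 to Tbx21 and overlap for Eomes to Tbx21 and Rora to Gata3.

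For each factor the 3 genes with the most similar course over the 7 libraries were listed by Pearson correlation of log2(CPM + 0.5), among 10629 genes. With 7 libraries in 2 groups, high values arise for any gene that differs between the genotypes, so they are given as a description. Tbx21 ran with Top2a, a topoisomerase of dividing cells (mean 4.19 CPM in WT and 34.4 CPM in GOF, r = 0.999), AW112010 and Mmp9, a protease of neutrophils. Eomes ran with Mmp9 (r = 0.999), Ephx1 and Ncapg, a condensin subunit. Maf ran with the interferon-induced Oasl1 (3.57 and 21.8 CPM, r = 0.999), Parp3 and Esyt1, Gata3 with Zdhhc2, Abcb1b and Lbh, and Zbtb7b with Pglyrp2 (62.5 and 161 CPM, r = 0.999), Vamp2 and Ppp1r15a. Runx1 ran with Rnf103 (r = 0.996), Lrrc8d and Zbtb24, Runx3 with Fam129c, Bhlhe40 and Gbp5, and Ahr with Chac2, Lmbrd1 and Snrk. For Rora the match did not follow genotype. Kat6b, a histone acetyltransferase, was at 13.0, 63.0 and 51.9 CPM in WT replicates 1 to 3 and at 12.2, 15.5, 42.0 and 38.7 CPM in GOF replicates 1 to 4 (r = 0.995), and the next genes, Trim68 and Trappc5, had r of 0.943 and 0.938.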

How the data were processed

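Gene expression was measured by paired-end RNA sequencing (TruSeq libraries from total RNA) in 7 libraries, 1 per mouse. The authors deposited raw counts and FPKM values for 34745 genes, per the file headers. Per the submitters' processing notes the tools were HISAT2 2.0.4, Cufflinks 2.1.1 and Cuffdiff on mm10. What each tool did, how reads were counted and whether strand was used is not stated there, so reads of antisense and overlapping genes cannot be told apart. The deposited FPKM equals count over a fixed gene length and column total (within 0.1% for 100% of values). GENCODE M21, on the same genome, gave gene type, strand and merged exon length, and the loci of all 9 factors were identical in it.

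Counts were tested with edgeR 4.0.16 (R 4.3.3; filterByExpr, TMM, quasi-likelihood, 1 model of all 7 libraries, Benjamini-Hochberg adjustment over 12668 genes, threshold 0.05). CPM values use TMM-scaled totals, and intervals of fold changes come from the quasi-likelihood fit. In counts simulated for these 12668 genes and this comparison, the test recovered 80% of 100 genes with a log2 change of 1 and 92% of 100 with a log2 change of 2. Of the simulated calls 4.97% were of unchanged genes. Each simulated gene had its mean over all libraries and the spread typical of genes at its level. Recovery for a gene with a wider spread, such as Rora, or a very low WT level, such as Tbx21, was thus not measured. Alternatives were DESeq2 1.42.0, limma 3.58.1 on log2 FPKM, other scalings and filters, a replicate block, and left-out libraries. No pair of libraries agreed within sampling noise (chi-square per degree of freedom at least 11.1). Replicate numbers were not taken to pair the mice.

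The factors, gene lists and alternatives were chosen with earlier results of these data known. Named genes are the 9 factors, up to 4 called genes with the smallest p per list, a fixed set of lineage factors, cytokines and coreceptors, and 3 most similar genes per factor with a mean of at least 1 CPM, leaving out predicted genes, pseudogenes and antigen receptor segments. Klrg1, Klre1, Prf1, Ncr1 and the antisense gene beside Zbtb7b were named outside this rule, after their values were seen. A few genes that the rule names are not reported here. Lists are described by counts and medians, without a set test.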

Additional observations from a re-analysis of the deposited data

Results flagged for a closer look

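Runx1 in GOF replicate 4 (96.21 CPM) lay apart from the other 3 GOF libraries (113 to 116 CPM), by a gap of 0.854 of the range of the 4 libraries, above the 95% critical value of Dixon's test. Of 14 sets of 4 GOF values (levels and ratios) tested this was the only one past that value, and chance alone puts about 1 in 20 there. Without that library the log2 fold change of Runx1 was -0.27 (edgeR adjusted p = 0.0456), so its call did not rest on it.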

How the results depend on the processing

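Tbx21, Eomes, Maf, Gata3 and Zbtb7b kept their direction and their call under all 17 alternatives, with log2 fold changes of 1.86 to 3.72, 1.69 to 3.57, 2.06 to 3.43, 0.67 to 0.98 and 0.89 to 1.15. The lowest values of the first 3 came from limma on log2(FPKM + 1), a scale that understates changes of low genes. Rora (-1.32 to -0.14) and Ahr (0.12 to 0.55) were not called in any of their 16 (the filter at a mean FPKM of 1 removed both). Runx1 was not past the threshold after upper quartile scaling (-0.24, adjusted p = 0.0740), in limma on log2(FPKM + 1) (-0.21) and log2(FPKM + 0.1) (-0.24), without GOF replicates 1 and 3 (-0.39) or 2 and 4 (-0.24) and with the replicate block (-0.26), and without single libraries it ran from -0.34 to -0.27. Under these, and without WT replicate 1 or 3, 0 factors were called lower, against 1 in the other alternatives. Runx3 passed after upper quartile scaling (0.38, adjusted p = 0.0411) and in limma (0.37 and 0.39), and without single libraries ran from 0.18 to 0.46. The causes were not tested. Over all genes 2124 (1074 higher, 1050 lower) were called without GOF replicates 1 and 3, against 3968 (2130 and 1838) in the main analysis. Of called genes 53.7% were higher in the main analysis and 65.2% and 65.9% in limma on log2(FPKM + 1) and log2(FPKM + 0.1). The replicate block called 3196 genes. Same-numbered libraries had correlated deviations of 0.0256, 0.147 and -0.0406, and not every library correlated best with its own number (in WT only replicate 2 did). The numbers were therefore not taken to pair the mice. The Eomes to Tbx21 ratio (log2, GOF minus WT) turned to 0.0177 without WT replicate 3, and without single libraries it ran from -0.21 (GOF replicate 4) to that value. Of the 740 values of 44 other genes that the naming rule took from the lists under alternatives 713 kept direction and call, 22 lost the call and 5 turned sign. All 5 were of Cbfb, which was never called (0.0087 after upper quartile scaling, 0.0073 and 0.0076 in limma, 0.0337 without GOF replicates 1 and 3, and from -0.1529 to 0.0030 without single libraries). Depth limits Tbx21 in WT (39 counts) and Ahr (141 counts in WT).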
